A study of Drosophila melanogaster with 3 samples.

Results

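The muscle differentiation genes examined here were 10 genes of Drosophila melanogaster, listed by name, out of 13968 protein-coding genes. They were split by role into 3 regulators (Mef2, twi and nau) and 7 structural genes (Mhc, Act57B, Act87E, sls, bt, up and wupA), and all 10 names matched a single gene of the Ensembl annotation. Each gene was taken with 5 kb on either side. Binding was measured by chromatin immunoprecipitation with an anti-GFP antibody and sequencing, in whole embryos of mixed sex aged 0 to 24 h from 1 transgenic line that stably expresses the homeotic factor Labial with GFP at its C terminus. There was 1 group with 3 biological replicates, all from that line, and no group without the fusion was analysed here. The regulatory sequence that drives the fusion gene is not given in the sources used here, and whole embryos mix muscle with every other tissue. A peak's summit is the base of its highest signal. The authors' list thresholded by irreproducible discovery rate (IDR), a measure of how well peak ranks repeat between replicates, held 10160 peaks. Ranks below are by the authors' signal within a list, rank 1 being the strongest.

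Muscle formation in the fly runs through a short cascade. Twist, a basic helix-loop-helix factor, starts the mesoderm and switches on Mef2, whose product then activates the genes of the contractile apparatus as muscles differentiate. The fly MyoD homologue nautilus, encoded by nau, acts in a subset of muscle founder cells. The structural genes encode the thick filament motor (Mhc), muscle actins (Act57B and Act87E), giant elastic proteins of the sarcomere (sls and bt) and the troponins T and I of the thin filament (up and wupA). Labial itself is best known for roles in the head and midgut.

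Summits were dense at Mef2 and nau and sparse over the summed windows of the structural genes. Of the structural genes, Act87E and Act57B nevertheless had a density above the median of all protein-coding genes. The density at twi depended on which of its transcripts set the window. The 10 windows held 29 IDR summits in 389.33 kb, of which 24 lay in the 143.859 kb of the regulators and 5 in the 245.471 kb of the structural genes. At least 1 summit was found at 7 of the 10 members (3 of 3 regulators and 4 of 7 structural genes), and 58.7% of all protein-coding genes had 1 in the same window. Once summits within 500 bp of another gene's start site were left out, 6 of 10 members had 1, against 45.6% of all genes. A summit within 500 bp of the gene's own start site, here called a promoter summit, was present at 3 members (Mef2, Act87E and sls), and 25.5% of all genes had 1. Replicates 1, 2 and 3 each had a promoter summit at these same 3 members among their strongest peaks, against 28.2%, 24.7% and 26.4% of all genes. These shares lie near the background and are no result about the members, which differed mainly in how many summits they held.

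**Figure D1:**
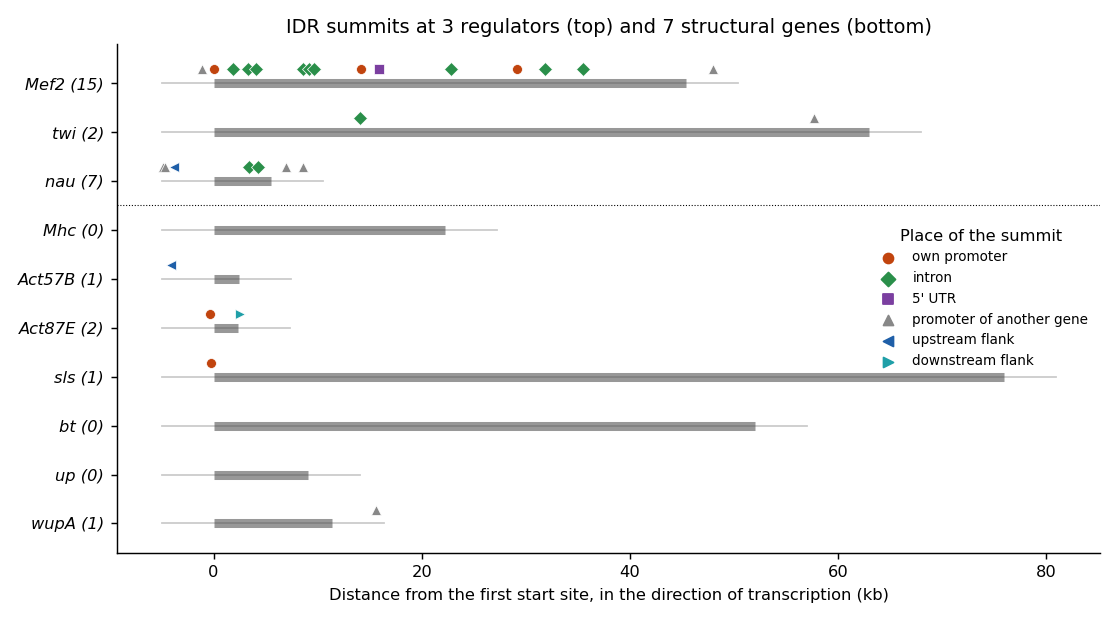
IDR summits at each gene, with the distance from its first start site in the direction of transcription on the horizontal axis (kb), the gene as a thick bar, its 5 kb flanks as a thin line and the number of summits in brackets. Of the 15 summits of Mef2, 13 lie between its ends and are spread over the gene, while the structural genes have none between their ends.

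The density of summits was measured in each replicate's own list, cut to its 10160 strongest peaks. The regulators held 25, 24 and 20 summits in replicates 1, 2 and 3, against 5, 5 and 5 over the structural genes. That is 0.160 ± 0.0184 summits per kb at regulators and 0.0204 ± 0 at structural genes (SD, n = 3). In every replicate the regulators were the denser class, by 0.153, 0.146 and 0.119 summits per kb. The mean difference was 0.140 ± 0.0184 summits per kb (SD, n = 3; exact sign-flip permutation test over replicates, two-sided p = 0.25). With 3 replicates 0.25 is the smallest p this test can give, so it cannot reach 0.05. Both the SD and the test run over replicate lists of the same 10 genes. They describe how the lists repeat and do not measure the spread between genes. The difference was 0.0738 without Mef2, 0.107 without nau and 0.280 without twi. Without summits at other genes' start sites it was 0.0926. Replicate 3 had the fewest regulator summits. Gene by gene the classes overlapped, since Act87E, Act57B and wupA had a higher density than twi over its full span in every replicate. The median density over the 10 members was 0.0371 summits per kb, and over all protein-coding genes it was 0.0744. Taken as summits over summed window length, as the class values are, the IDR list gave 0.0745 for the members and 0.0933 for all protein-coding genes.

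**Figure D2:**
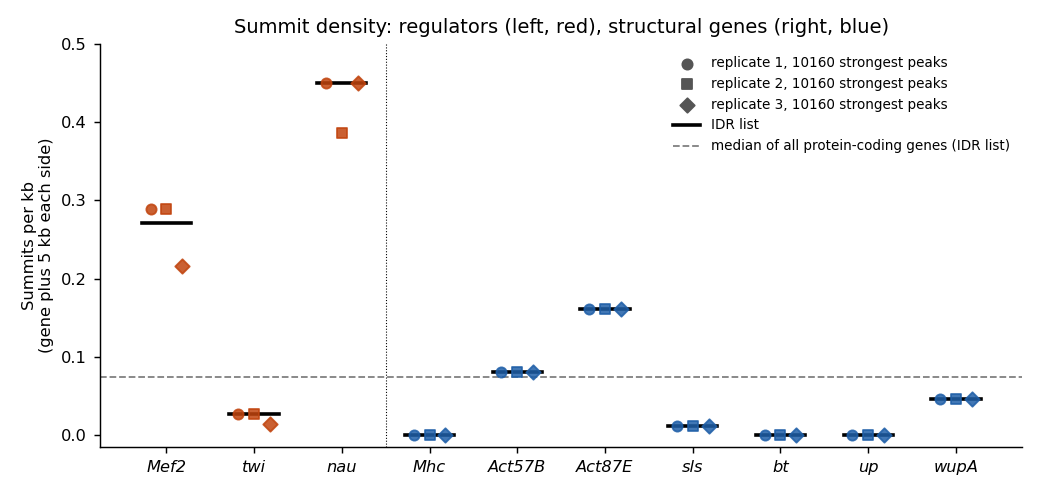
Summits per kb in the gene plus 5 kb each side, for the IDR list (black bars) and for the 10160 strongest peaks of each replicate (points), with regulators in red on the left and structural genes in blue on the right; the dashed line is the median of all protein-coding genes. Mef2, nau, Act57B and Act87E lie above the line in every replicate, and twi (by its full annotated span), Mhc, sls, bt, up and wupA lie below it.

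Mef2 (FBgn0011656, 2R:9913496-9958858, minus strand), which encodes the MADS-box factor that activates muscle structural genes, held 15 IDR summits, 0.271 per kb. The replicates' lists gave 16, 16 and 12 summits, a mean of 14.7 ± 2.31 (SD, n = 3), so replicate 3 was the lowest. A lower density was found at 91.0% of all protein-coding genes, and at 96.3% of the 355 genes whose windows were 50 to 100 kb long. At least 1 summit was found at 87.3% of genes in that size class, at 55% of those with windows under 20 kb, at 80% of those of 20 to 50 kb and at 79.6% of those of 100 kb and over. Genes of 50 to 100 kb held a median of 4 summits (quartiles 2 and 8), and 6.48% of them held 15 or more.

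Summits of Mef2 lay mostly inside the gene. Introns held 9 of them, the start sites of Mef2 held 3, a 5' UTR held 1 and the start sites of neighbouring genes held 2. Mef2 has 3 annotated start sites, and each had a summit close by: 65 bp away at rank 3758, 72 bp at rank 8661 and 42 bp at rank 8872. The first was found in replicates 1, 2 and 3 at ranks 2673, 5721 and 4489. The second had ranks 9880, 8848 and 10484. The third had ranks 12864 and 6654 and no summit within 100 bp in replicate 3, so its support was the weakest of the 3. The strongest summits inside the gene were intronic. The peak of rank 931 lay 9.66 kb from the first start site, with ranks 905, 1131 and 715 in the replicates. Summits of ranks 2072 and 3064 followed within 524 and 581 bp of their neighbour, so that 3 intronic summits stood side by side. A second pair, of ranks 1220 and 3236, lay 811 bp apart nearer the first start site, and the 5' UTR summit had rank 2633.

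The strongest peak in the window of Mef2 lay closer to the start site of a neighbour, and which gene it serves was not tested. Its summit lay 151 bp from the start site of Pal1, which encodes a lyase of peptide amidation, and 1069 bp upstream of the first start site of Mef2. It had rank 40 of the 10160 and a signal of 4346.5, and its ranks in the replicates were 42, 48 and 33. At the other end a summit of rank 4620 lay 77 bp from the start site of Etf-QO, which encodes an electron transfer enzyme of mitochondria. Leaving both out, Mef2 held 13 summits, 0.235 per kb. Of all 15 summits, 13 had a replicate summit within 100 bp in all 3 replicates. The 2 exceptions were the third start site and an intronic summit of rank 9769 that only replicate 2 held.

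twi (FBgn0003900, 2R:22985374-23048325, plus strand), whose product starts mesoderm formation, held 2 IDR summits in its window, 0.0274 per kb, and none within 500 bp of its start sites. The replicates' lists gave 2, 2 and 1. A lower density was found at 42.0% of all genes and at 27.0% of the genes of the same size class. The window is long because a single annotated transcript starts far upstream of the others. The stronger summit, of rank 3828, lay 136 bp from the start site of CG42741, which falls within the annotated span of twi, and 3029 bp upstream of the short transcripts. Its ranks in the replicates were 2948, 4596 and 6026. The weaker summit, of rank 9942, lay in the intron, 586 bp from the start site of CG9896. The short transcripts span 2.218 kb. With 5 kb each side they held 1 summit, that at CG42741, in the IDR list and in each replicate, or 0.0818 per kb, above the median of 0.0744 over all genes. With this span the regulators together held 0.277 summits per kb.

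**Figure D3:**
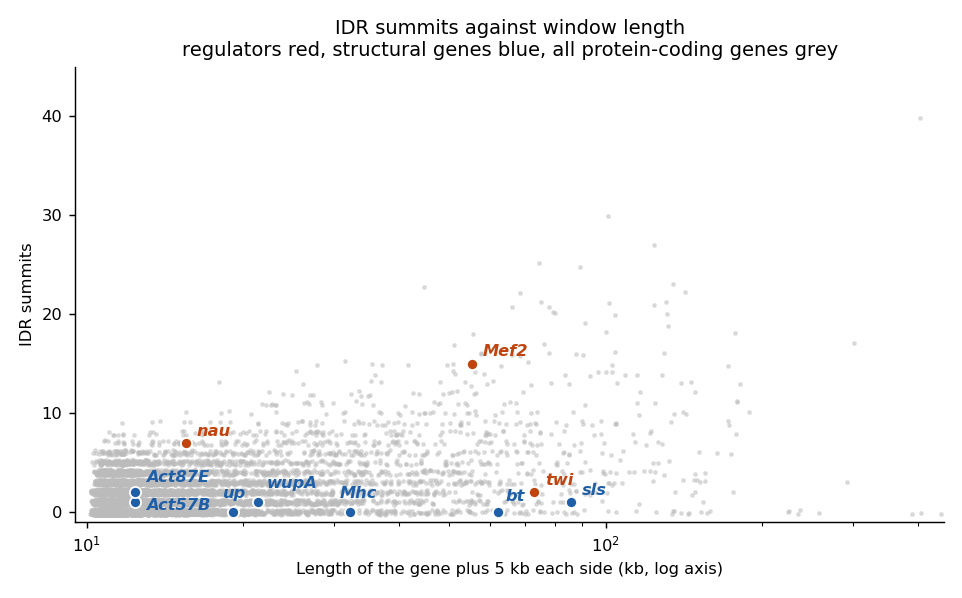
IDR summits (vertical axis) against the length of the gene plus 5 kb each side (kb, log axis) for all protein-coding genes (grey, spread slightly up and down to separate equal counts), with regulators in red and structural genes in blue. Mef2 and nau stand high among genes of their length, while sls, bt and twi (by its full annotated span) stand low.

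nau (FBgn0002922, 3R:23712814-23718357, minus strand), the homologue of vertebrate MyoD, held 7 IDR summits, 0.450 per kb. This was the highest density of the 10 members, but without summits at other genes' start sites nau held 3, 0.193 per kb, fewer per kb than Mef2 at 0.235. The replicates' lists gave 7, 6 and 7, a mean of 6.67 ± 0.577 (SD, n = 3). A lower density was found at 98.7% of all protein-coding genes and at 98.6% of genes with windows under 20 kb. Of the 7 summits, 4 lay within 500 bp of the start site of a neighbour, CG10365, CG10300 or CG10301. Those at CG10365 lay 202 bp apart, in peaks that overlap, and were counted separately. nau has a single start site, and the IDR list had no summit within 500 bp of it. Inside the gene there were 2 summits, both intronic, of ranks 3713 and 7332. The stronger of them, 4242 bp downstream of the start site, had ranks 3664, 4004 and 3767 in the replicates. All 7 summits had a replicate summit within 100 bp in all 3 replicates. The remaining summit, of rank 9147, lay in the upstream flank, 511 bp from the start site of CG10232, just past the limit of 500 bp, and replicate 2 ranked it far lower, at 24539, than replicates 1 and 3, at 7116 and 7783.

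Sequence around the strongest summit of the nau window and around its stronger intronic summit is shown because these are the top peak of the window and the top peak inside the gene. The strongest lies upstream of nau at 3R:23722965-23723065, 316 bp from the start site of CG10365, with rank 836 and ranks 849, 822 and 990 in the replicates. The intronic stretch is 3R:23714065-23714165. Both are from the plus strand of the RefSeq dm6 assembly, 50 bases to either side of the summit. Capitals mark an E-box of the type bound by Twist in the first, and the summit base in the second.
nau upstream summit: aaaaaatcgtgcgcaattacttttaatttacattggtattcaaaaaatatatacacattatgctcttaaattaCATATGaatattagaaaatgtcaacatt
nau intronic summit: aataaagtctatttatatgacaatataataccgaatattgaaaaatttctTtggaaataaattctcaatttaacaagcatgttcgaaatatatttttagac

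The 7 structural genes held 5 IDR summits, none of them between the ends of a gene. Their gene bodies add up to 175.471 kb with 0 IDR summits, and those of the regulators to 113.859 kb with 17. Of those 17, Mef2 alone held 13, while twi and nau held 2 each. The stronger summit of twi lay at the start site of CG42741. Of all protein-coding genes, 19.3% held a summit between their ends. Of the 226 genes of 50 to 100 kb, the class of sls and bt, 84.1% did, with a median of 4 summits (quartiles 1 and 7.75). The 5 summits lay at the start sites of sls and Act87E, in the flanks of Act87E and Act57B, and at the start site of a neighbour of wupA. All 5 were found in all 3 replicates, and each replicate's list held exactly 5 summits in these windows.

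sls (FBgn0086906, 3L:2039681-2115611, minus strand) encodes Sallimus, a titin-like spring that links the thick filament to the Z-disc. Its single summit, at the peak 3L:2115744-2116000, lay 244 bp upstream of its start site, with rank 1755 and a signal of 728.1. It was the strongest summit at any structural gene, and its ranks in replicates 1, 2 and 3 were 1658, 2357 and 1525. The remaining length of this 75.931 kb gene held no IDR summit, and 13.0% of genes of the same size class had a lower density.

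Act87E (FBgn0000046, 3R:13425983-13428375, plus strand), a muscle actin gene, held 2 summits, 0.161 per kb, in the IDR list and in each replicate. A lower density was found at 74.2% of all genes. A summit of rank 5538 lay 298 bp upstream of the first start site, with replicate ranks 6622, 4720 and 6318. The stronger, of rank 2830, lay just past the 3' end of the gene, 2078 bp from the nearest start site, with replicate ranks 2492, 3080 and 3411.

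The sequences at the start site summits of sls and Act87E and at the 3' summit of Act87E are given because they are the IDR summits at the start or end of a structural gene itself. They are 3L:2115805-2115905, 3R:13425585-13425785 and 3R:13428475-13428575 on the plus strand of the RefSeq dm6 assembly. At the start site of Act87E 100 bases to either side of the summit are shown, a width chosen after the matches were seen, and 50 bases elsewhere. Capitals mark the summit base in sls, a MEF2 consensus match followed by an E-box in the first Act87E sequence, and a homeodomain core in the second.
sls start site summit: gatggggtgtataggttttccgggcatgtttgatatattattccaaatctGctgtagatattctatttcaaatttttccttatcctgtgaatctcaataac
Act87E start site summit: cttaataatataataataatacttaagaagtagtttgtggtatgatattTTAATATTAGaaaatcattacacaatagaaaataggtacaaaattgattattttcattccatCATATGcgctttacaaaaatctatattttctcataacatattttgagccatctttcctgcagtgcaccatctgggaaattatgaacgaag
Act87E 3' summit: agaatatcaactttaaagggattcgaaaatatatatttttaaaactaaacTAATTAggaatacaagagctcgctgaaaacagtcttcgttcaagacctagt

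Act57B (FBgn0000044, 2R:20944021-20946431, plus strand), another muscle actin gene and a known target of Mef2, held 1 summit, 4099 bp upstream of its start site. It had rank 2479 in the IDR list and ranks 2715, 3054 and 2141 in the replicates. No start site of another protein-coding gene lay within 10 kb of it, the nearest being that of CG33704 at 10180 bp. The density of 0.0806 summits per kb was higher than at 53.0% of all genes.

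wupA (FBgn0283471, X:18105568-18116922, minus strand), the troponin I gene, had a single summit in its window, of rank 5557, with replicate ranks 5696, 6820 and 5078. It lay in the downstream flank, 7 bp from the start site of Mvb12, which encodes a subunit of the ESCRT-I complex, and 13427 bp from the nearest start site of wupA. Mhc (FBgn0264695, 2L:16766566-16788766, plus strand), up (FBgn0004169, X:13593474-13602578, minus strand) and bt (FBgn0005666, 4:724400-776474, plus strand) held no IDR summit. They encode muscle myosin heavy chain, troponin T and the giant kinase Projectin. None of the 3 replicates' lists had a summit in these 3 windows among its 10160 strongest peaks, so the replicates were alike here.

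Below the IDR list 4 structural genes (Mhc, Act57B, up and wupA) showed weak peaks at their start sites. The pooled list continues to rank 30000 and includes background, as the authors' description says, and peaks past rank 10160 did not meet the authors' threshold. Of the 10 windows 9 held a summit of that list, all but that of bt, against 74.7% of all genes. Within it 6 of the 7 structural genes had a summit within 500 bp of a start site, bt being the exception and sls and Act87E having theirs in the IDR list already. Of the 3 regulators 1 had such a summit, Mef2, also in the IDR list. Of all protein-coding genes, 38.1% had such a summit in that list, a share not matched for the number of start sites per gene. Among the structural genes, up has 6 start sites, Mhc 5, wupA and bt 3 each, Act87E 2, and sls and Act57B 1 each. In wupA the strongest promoter summit had rank 11671 and replicate ranks 11669, 24102 and 10957, and there was a stronger intronic peak at rank 10392, just under the last IDR rank. That of Mhc had rank 12925 and replicate ranks 11982, 16331 and 14630. That of up had rank 14369, ranks 16759 and 12568 in replicates 1 and 2 and no summit within 100 bp in replicate 3. That of Act57B had rank 27135, rank 12688 in replicate 1 and no summit within 100 bp in replicates 2 and 3. bt had none in the pooled list, and a single peak at rank 22677 in replicate 1. Counting any summit within 500 bp of a start site, not only 1 near the pooled summit, Mhc, up and wupA had promoter peaks in every replicate list, all at ranks beyond 10160. By that rule Act57B also had a promoter peak in replicate 3, at rank 26376.

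**Figure D4:**
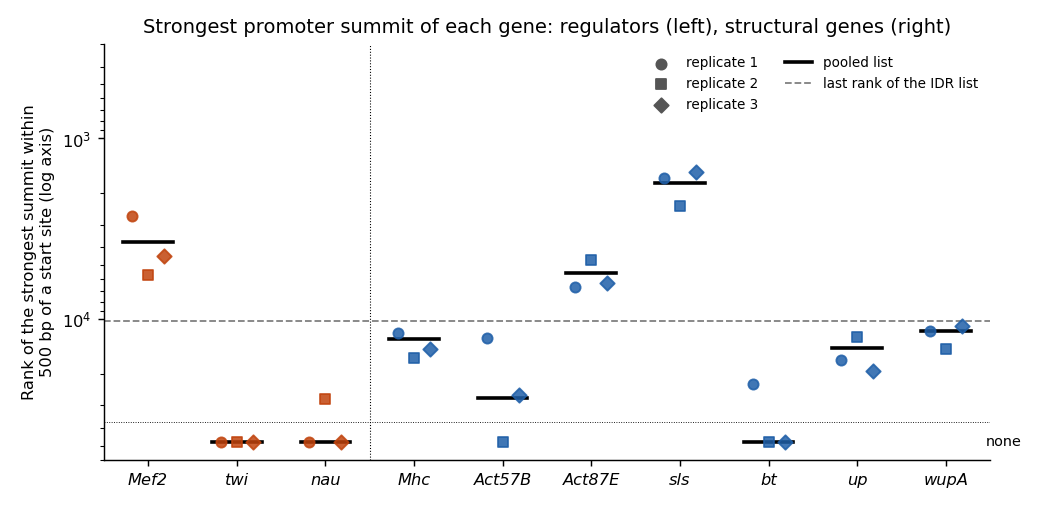
Rank of the strongest summit within 500 bp of a start site of each gene, in the pooled list (black bars) and in the 3 replicate lists (points), on a log axis with the strongest at the top; the dashed line is the last rank of the IDR list. sls, Act87E and Mef2 lie above the line, Mhc, up and wupA lie below it, and twi has none in any list.

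The lack of summits at bt goes with its chromosome. Chromosome 4, which is largely heterochromatic, held 9 IDR summits in all, and 9 of its 80 protein-coding genes (11.25%) had 1 within 5 kb, against 58.7% of all genes. The pooled list held 19 summits there and the replicates' whole lists 20, 12 and 36. The part of the chromosome in the absence of summits at bt was not tested. Without bt the regulators exceeded the structural genes by 0.133 summits per kb.

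Most of the 29 summits were found again in every replicate. A replicate summit within 100 bp was present in all 3 replicate lists for 27 of them (93.1%), against 88.8% of all IDR summits. For 23 of the 29 these replicate summits were also among the 10160 strongest (79.3%, against 64.7% of all IDR summits). At regulators 22 of 24 and at structural genes 5 of 5 had support in all 3 lists. Both summits without full support were weak, with ranks 8872 and 9769. The IDR peaks were the 10160 strongest of the list pooled over these same replicates. Such support is therefore not independent evidence of binding. Peaks narrower than 300 bp made up 11 of the 29, and 26.2% of all IDR peaks were that narrow.

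**Figure D5:**
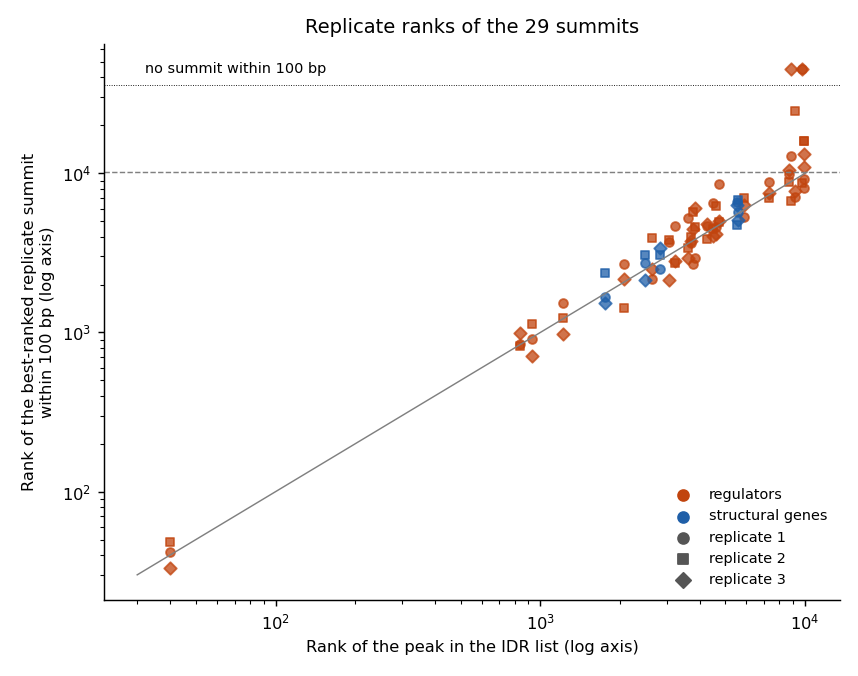
Rank of the best-ranked replicate summit within 100 bp (vertical log axis) against the rank in the IDR list (horizontal log axis) for the 29 summits, with regulators in red, structural genes in blue and a marker for each replicate; the dashed line is rank 10160. Points follow the diagonal, and the missing replicate summits belong to 2 weak summits of Mef2.

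Sequence within 100 bp of the 29 summits was searched on both strands for 6 motifs. The site for Labial with its cofactor Extradenticle (TGATTGAT or TGATGGAT) was within reach of 0 of the 29 summits and of 3.34% of all 10160 IDR summits, a share at which 29 summits are too few to read a difference. The homeodomain core TAATTA was found at 4 (13.8%, against 14.7% of all IDR summits). E-boxes of the Twist type (CATATG or CACATG) were found at 5 (17.2%, against 15.9%), and the GAGA factor site GAGAG at 9 (31.0%, against 25.6%). The DRE site TATCGATA was at 0 of the 29 and at 1.98% of all. The MEF2 consensus was found at 2 (6.90%, against 9.36% of all IDR summits): the upstream summit of Act57B and the start site summit of Act87E. Both are at structural genes, and 0 of the 24 regulator summits had it. At regulators and structural genes the E-boxes were at 4 and 1 summits, and GAGAG was at 8 and 1. TAATTA and the MEF2 consensus can overlap in AT-rich sequence, and the median GC content was 39.3% at the 29 summits and 37.8% over all. These are matches of letters, described and not tested.

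Other muscle genes were described from 5 lists with 74 genes, all matched to the annotation (Unc-89 under its present symbol Obsc). Summits within 5 kb were found at 17 of 26 further sarcomere and Z-disc genes, at 10 of 11 genes of myoblast fusion and at 16 of 26 regulators of mesoderm and muscle identity. They were found at 9 of 9 genes of muscle attachment and at 1 of 2 cytoplasmic actins, and 58.7% of all genes had 1. The median densities were 0.0508, 0.0801, 0.0427, 0.178 and 0.206 summits per kb in that order, with 0.0744 over all genes. Taken as summits over summed window length, they were 0.0881, 0.0903, 0.0548, 0.158 and 0.228, with 0.0933 over all genes. By both measures the identity regulators were less dense than the further sarcomere genes, unlike the regulators and structural genes among the members. Promoter summits were found at 7 of 26, 3 of 11, 8 of 26, 7 of 9 and 1 of 2, with 25.5% over all genes. The attachment list, which holds integrins and their linkers, thus had the highest shares among the lists longer than 2 genes, with 7, 6 and 6 genes with a promoter summit in replicates 1, 2 and 3. These counts were not tested, and the lists were not matched to all genes for window length. Of all genes, 55% of those with windows under 20 kb had a summit. In the classes of 20 to 50 kb, 50 to 100 kb and 100 kb and over, 80%, 87.3% and 79.6% had 1.

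The strongest peaks of these lists often sat at a neighbour's start site. Among sarcomere genes Strn-Mlck, for a myosin light chain kinase, had a peak of rank 51 at the start sites of CG8320 and Pex11ab, and Tm1, for tropomyosin, had rank 181 at those of CG4338 and Cp190. Msp300, a giant nesprin, had rank 288 in an intron. Among fusion genes kirre, for the adhesion protein of founder cells, held 40 summits in a window of 404.149 kb, the strongest of rank 303 at the start site of Syx4. rols and mbc, which act downstream of it, had intronic peaks of ranks 849 and 1377. Among identity regulators the peak of rank 462 at tup lay at the start site of CG10602, zfh1 had an intronic peak of rank 507 and tin its own start site at rank 554. Among attachment genes stck, for the integrin linker PINCH, had rank 158 at 1232 bp upstream, rhea, for Talin, rank 679 in an intron and if, for an integrin, rank 1654 at the start site of goe. The cytoplasmic actin gene Act5C held 6 summits, 0.413 per kb, the strongest of rank 580, while Act42A held 0 in the IDR list and 2, 0 and 2 in replicates 1, 2 and 3. Of the muscle actin genes, Act57B held 1 and Act87E 2, while Act79B and Act88F of the sarcomere list held 0 in the IDR list and in every replicate.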

How the data were processed

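Per the deposited file descriptions, the authors made a narrowPeak list, background included, for each replicate and for all 3 together, and derived from these an optimal list thresholded by IDR. The labels name 1 possible control, the same for each replicate. The peak signal (narrowPeak column 7) is the authors' deposited value on an unstated scale and was used only to rank peaks within a list. How reads were aligned and peaks called, and the cut-off for IDR, is not given in the sources used here. Because these lists hold no read numbers, depth is unknown and no value carries a counting interval. The deposited lists name the build dm6, and all 10 members had the same ends in Ensembl release 115 and the RefSeq assembly. The dm3 lists were not used.

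Summits are peak start plus offset, 1-based. Windows were the gene plus 5 kb each side, promoter summits were those at most 500 bp from the start of a protein-coding transcript, and replicate support meant a summit within 100 bp. Summits were placed, in this order, at an own start site, another gene's start site, a 5' UTR, a coding exon, a 3' UTR, an intron or a flank. Start sites of other genes were those of protein-coding genes only. Replicate counts used the 10160 strongest peaks of each list, the number of IDR peaks, which were the 10160 strongest of the pooled list. No identical peak was shared between replicate lists. The 1 test was an exact sign-flip permutation test over 3 replicates. Window counts were checked on simulated summits over 13968 genes against bedtools 2.31.1, with 0 differences, and 10 of 10 planted genes were recovered. Python 3.11.15, numpy 2.4.6, pandas 2.3.3 and matplotlib 3.10.9 were used. The genes and lists were chosen with earlier results of these data known. All members were named. Of each further list at most 3 genes were named, by strongest summit, and both cytoplasmic actins. Neighbours were named where a summit lay at their start site. A few neighbours just outside that limit, and the choice of intronic and start site sequences, came after values were seen. The alternatives changed the flank, the start site window, the list, the support rule and each replicate, and the closing section gives their effect.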

Additional observations from a re-analysis of the deposited data

How the results depend on the processing

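No paired analysis was possible because all 3 samples belong to 1 group, so no groups of samples could be paired; the difference between gene classes was taken within each replicate. The regulators stayed denser than the structural genes in all 20 alternatives of that difference, from 0.0738 to 0.280 summits per kb. The alternatives reuse the same genes and lists, and none left out Mef2 and nau together. By its full span twi alone averaged 0.0228 summits per kb over the replicates, against 0.0204 at the structural genes. Leaving out each replicate gave a difference of 0.133 to 0.150. Of the 29 IDR summits, 27 to 28 then had support in all remaining replicates, which is 93.1% to 96.6%. Without flanks 3 members, all regulators, held 17 summits, the structural genes had 0 summits per kb and 88.2% of summits had full support. Flanks of 2 kb and 10 kb gave the structural genes 0.0147 and 0.0254 summits per kb. Of the members 2 had a promoter summit at a window of 250 bp, and 3 at 1000 bp. The 5080 strongest IDR peaks left 19 summits, 2 members with a promoter summit, 0.111 per kb at regulators and 0.0122 at structural genes, with 100% full support. The whole pooled list, background included, gave 79 summits, 7 members with a promoter summit, 0.327 per kb at regulators and 0.130 at structural genes, and full support fell to 53.2%. Full support was 69.0% by a reciprocal overlap of at least 50%, and 79.3% when the replicate summit had to be among the 10160 strongest. Chosen after seeing the data, the short transcripts of twi gave regulators 0.277 per kb, and leaving out summits at other genes' start sites gave 0.118 at regulators and 0.0163 at structural genes. The causes of these changes were not tested beyond what each change of list or window makes by construction. Unknown read depth limits what the absence of a summit shows: it was not detectable at the authors' threshold, not shown to be absent.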
